A study of Mus musculus with 8 samples.

Results

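The core circadian clock was examined in the kidney of diabetic mice treated with rFGF4 or vehicle. The 10 genes were taken by name, namely Arntl, Clock, Per1, Per2, Per3, Cry1, Cry2, Nr1d1, Nr1d2 and Dbp, and all 10 were found among the 55401 genes of the expression table. RNA-seq was performed on kidney tissue from 8 mice with each library taken as 1 mouse. Of these, 4 came from the rFGF4 treatment group (mice 1, 2, 3 and 5). The other 4 came from the db/db model group (mice 2, 3, 4 and 5), which served as the vehicle control. The study calls the sequenced material renal tissue, and its RNA isolation for real-time PCR names the renal cortex. The labels give the genotype as db/db, a leptin receptor mutation that causes obesity and type 2 diabetes, whereas the text of the study describes the sequenced kidneys as those of mice made diabetic with streptozotocin (STZ), a toxin of pancreatic beta cells. Which of the models was sequenced cannot be read from the files. For male mice of both models the methods give rFGF4, a modified non-mitogenic recombinant fibroblast growth factor 4, injected intraperitoneally on alternate days over 8 weeks at 1 mg/kg, with PBS as vehicle. Dosing began at 12 weeks of age in the db/db regimen. Housing was on a 12 h light and 12 h dark cycle with lights on at 7 in the morning. After the last injection the methods describe 24 h of urine collection in metabolic cages, before the mice were killed. The hour at which the kidneys were taken is not given in the sources used here, so treatment and time of collection cannot be told apart in any comparison of clock genes.

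The mammalian clock is a feedback loop of transcription. BMAL1 (encoded by Arntl) and CLOCK bind DNA together and switch on the Period and Cryptochrome genes, whose proteins return to the nucleus and inhibit the same activators. A second loop runs through REV-ERB alpha and beta (encoded by Nr1d1 and Nr1d2), which are also switched on by BMAL1 and CLOCK and which repress Arntl and Cry1. Dbp encodes a PAR bZIP transcription factor that carries the rhythm to output genes. In tissues with a running clock, Arntl and Dbp peak at nearly opposite times of day, and the kidney clock is known to time sodium transport, filtration and drug handling. A single sample per animal therefore mixes the level of a gene with its phase.

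The sequences through which these factors act were read in the promoters of the members. RefSeq promoter windows on GRCm38.p6, from 250 bases before to 50 bases after the annotated start, matched 9 of the 10 members, all except Per2. The table held 13 windows for these members, since Arntl, Clock and Per1 have more than 1 annotated start. The letters searched on both strands were CACGTG (the E-box bound by BMAL1 and CLOCK), CACGTT (a noncanonical E-box), TTATGTAA (the D-box bound by PAR bZIP factors), TAGGTCA (the core of the element bound by REV-ERB and ROR, RRE) and TGACGTCA (the cAMP response element, CRE). None of these overlaps another in the windows described. Of 32851 promoter windows in the table, 7.15% held CACGTG, 4.68% CACGTT, 0.938% TTATGTAA, 2.61% TAGGTCA and 1.79% TGACGTCA. A match describes letters in the window and is not evidence of a bound site. The stretches below are shown because between them they hold every kind of match found, 5′ to 3′ on the strand of the gene, with the matched letters in capitals. They are the 250 bases before the start of Per1 (chr11:69098699-69098948, plus strand), Cry1 (chr10:85185055-85185304, minus strand), Per3 (chr4:151044666-151044915, minus strand) and Nr1d1 (chr11:98775378-98775627, minus strand), and 30 bases shortly after 1 of the annotated starts of Arntl (chr7:113207530-113207559, plus strand).
Per1: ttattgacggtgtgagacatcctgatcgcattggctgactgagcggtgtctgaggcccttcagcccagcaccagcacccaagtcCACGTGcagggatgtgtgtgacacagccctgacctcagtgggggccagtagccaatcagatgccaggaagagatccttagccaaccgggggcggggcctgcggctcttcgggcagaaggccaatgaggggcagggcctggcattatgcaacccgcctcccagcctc
Cry1: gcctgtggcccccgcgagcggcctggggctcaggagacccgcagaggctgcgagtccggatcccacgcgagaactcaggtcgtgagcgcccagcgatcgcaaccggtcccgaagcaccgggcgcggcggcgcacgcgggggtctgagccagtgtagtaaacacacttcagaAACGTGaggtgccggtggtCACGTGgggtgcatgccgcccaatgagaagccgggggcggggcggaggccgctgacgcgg
Per3: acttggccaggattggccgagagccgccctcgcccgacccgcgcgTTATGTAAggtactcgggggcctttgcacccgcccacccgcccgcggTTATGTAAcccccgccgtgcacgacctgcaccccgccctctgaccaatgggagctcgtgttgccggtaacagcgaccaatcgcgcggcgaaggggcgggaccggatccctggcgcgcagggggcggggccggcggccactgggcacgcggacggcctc
Nr1d1: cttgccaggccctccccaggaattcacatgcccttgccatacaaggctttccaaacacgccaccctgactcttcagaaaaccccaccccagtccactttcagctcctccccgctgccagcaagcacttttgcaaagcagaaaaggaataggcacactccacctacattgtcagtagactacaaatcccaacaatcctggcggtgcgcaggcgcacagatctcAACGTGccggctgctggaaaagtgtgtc
Arntl: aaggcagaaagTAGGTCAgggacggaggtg
The E-box lay 166 bases before 1 of the annotated starts of Per1, a start inside the gene span that GENCODE gives, and 60 bases before the start of Cry1, where the noncanonical form (AACGTG, which is CACGTT on the other strand) lay 79 bases before it. Nr1d1 held the noncanonical form 28 bases before its start, and Cry2 held it 166 bases before. Per3 held the D-box at 205 and at 158 bases before the start. Arntl held the REV-ERB and ROR core 31 bases after the start of 1 of its windows. The other windows of Per1 and Arntl and all windows of Clock, Nr1d2 and Dbp held none of the 5 motifs, and no member held the CRE letters.

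Values are FPKM (fragments scaled to exon length and to library size), so the levels of different members can be set side by side. Over all 8 mice, the mean FPKM ± SD was highest for Dbp (18.2 ± 8.23), followed by Nr1d1 (15.3 ± 6.42), Nr1d2 (12.8 ± 2.44), Per1 (11.8 ± 4.60) and Per2 (10.6 ± 2.67). These 5 output and repressor genes were not separable in their order, since each exceeded the next in only 4 to 6 of 8 mice, Per2 aside. Per2 was higher than Cry2 (5.37 ± 0.908) in 8 of 8 mice, and Cry2 was higher than Per3 (4.10 ± 0.662) in 8 of 8. Per3 and Cry1 (3.05 ± 0.944) crossed in 2 mice. The activators had the lowest levels, with Clock at 1.29 ± 0.695 and Arntl at 0.754 ± 0.433 FPKM. Cry1 was above Clock in 8 of 8 mice and Clock above Arntl in 6 of 8. The members also differed in how far mice lay apart. The ratio of the highest to the lowest mouse was 5.17 for Arntl, 4.55 for Clock, 3.82 for Per1, 3.75 for Nr1d1 and 3.42 for Dbp. It was 2.49 for Cry1, 2.14 for Per2, 1.79 for Nr1d2, 1.63 for Cry2 and 1.57 for Per3. Arntl reached 0.5 FPKM in 5 libraries and Clock in 6, so the ratios of these 2 genes rest on low values, whose counting error is unknown because the table holds no counts.

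**Figure D1:**
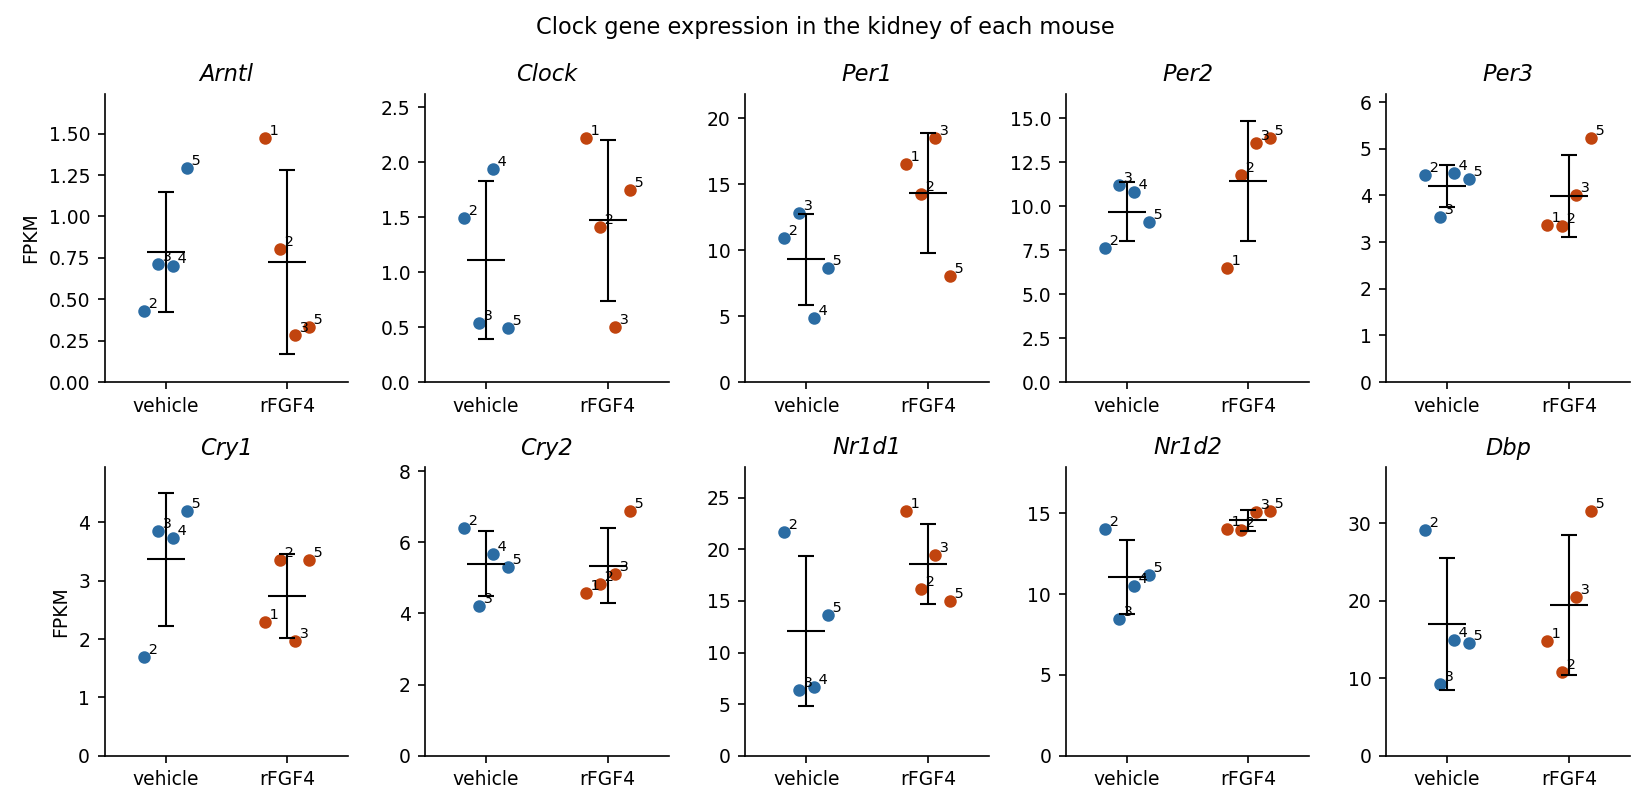
Expression of the 10 clock genes in each mouse (y axis, FPKM; 1 panel per gene with its own scale starting at 0). Points are mice, numbered as in the labels, and the lines give the mean and SD of 4 mice per group. In every panel the vehicle and rFGF4 points overlap, and vehicle-treated mouse 2 lies with the rFGF4-treated mice for Nr1d1 and Nr1d2.

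Across the 15150 genes with at least 0.5 FPKM in 4 or more libraries, rFGF4 and vehicle were compared with limma on log2(FPKM + 1), which understates the change of genes with low values. All 10 members met this filter. No member passed the threshold of the study, an unadjusted p under 0.05 together with a ratio of rFGF4 to vehicle of 1.5 or more, or of 0.67 or less, which 231 of all tested genes (1.52%) passed. No member passed an adjusted p of 0.05 either, and neither did any other gene (0%), the smallest adjusted p being 0.918. At an unadjusted p under 0.05, 1 member (Nr1d2) was called, beside 4.62% of all genes. In no member were the groups free of overlap, against 3.33% of all genes. The log2 fold change was positive for 6 members and negative for 4 (median 0.19), and it was positive for 67.1% of all tested genes (median 0.09). The excess of positive values over all genes depends on the scaling, since the median over all genes was -0.0107 with the libraries rescaled to share 1 median ratio. The sign held under 16 other settings of the comparison for Per1, Per2, Cry1, Nr1d1 and Nr1d2, and turned under at least 1 of those run for Arntl, Clock, Per3, Cry2 and Dbp.

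Both REV-ERB genes had higher means with rFGF4. Nr1d2 (chr14:18204054-18239127), which encodes REV-ERB beta, stood at 13.996, 13.993, 15.1 and 15.1 FPKM in rFGF4-treated mice 1, 2, 3 and 5, and at 14.015, 8.44, 10.5 and 11.2 FPKM in vehicle-treated mice 2, 3, 4 and 5. The rFGF4-treated mice were close together, and vehicle-treated mouse 2 fell inside their range while the other 3 lay below it. The means were 14.6 ± 0.644 and 11.04 ± 2.30 FPKM (SD, n = 4 each). The log2 fold change was 0.39 (SE 0.15), with a limma p of 0.0298 and an adjusted p of 0.918. In a two-sided exact permutation test of 4 against 4, which cannot go below 0.0286, p was 0.0857. Over 16 other settings of the comparison the fold change of Nr1d2 kept its sign (0.27 to 0.50), and the unadjusted p was under 0.05 in 8 of them and between 0.00688 and 0.194 overall.

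Nr1d1 (chr11:98767932-98775333), which encodes REV-ERB alpha, was measured at 23.7, 16.2, 19.4 and 15.0 FPKM with rFGF4 and at 21.7, 6.32, 6.63 and 13.6 FPKM with vehicle, in the same order of mice. Here too mouse 2 of the vehicle group was among the rFGF4-treated mice, while vehicle-treated mice 3, 4 and 5 held less than any of them. Mean levels were 18.6 ± 3.90 and 12.1 ± 7.26 FPKM (SD, n = 4 each), and the log2 fold change was 0.73 (SE 0.37). The limma p of Nr1d1 was 0.0809, and the exact permutation p was 0.171. Without vehicle-treated mouse 2 the fold change was 1.05 with an unadjusted p of 0.00696, past the threshold of the study, so this 1 library decides the call. It was 0.50 to 0.83 when any other single mouse was left out, and none of these passed the threshold. Exons of Nr1d1 overlap those of Thra on the opposite strand, and whether reads were counted by strand is not given in the sources used here, so reads in that stretch cannot be told apart.

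Among the Period repressors, Per1 differed most and Per3 least. Per1 (chr11:69095217-69109960), which also responds to hormones and other acute signals, had 16.5, 14.2, 18.5 and 8.04 FPKM with rFGF4 and 10.9, 12.8, 4.85 and 8.64 FPKM with vehicle. Mice 1, 2 and 3 with rFGF4 exceeded every vehicle-treated mouse, and rFGF4-treated mouse 5 lay below 3 of them. The log2 fold change of Per1 was 0.59 (SE 0.32; limma p = 0.107, exact permutation p = 0.171). Leaving out rFGF4-treated mouse 5 gave 0.82 with an unadjusted p of 0.0256, past the threshold of the study, whereas leaving out vehicle-treated mouse 4 gave 0.34. Per2 (chr1:91415982-91459324) stood at 6.50, 11.8, 13.6 and 13.9 FPKM with rFGF4 and at 7.61, 11.2, 10.8 and 9.10 FPKM with vehicle. The lowest value of Per2 was in rFGF4-treated mouse 1 and the highest in mouse 5 of the same group, so the rFGF4 group enclosed the vehicle group, and the log2 fold change was 0.18 (SE 0.24; exact permutation p = 0.514, limma p = 0.462). Without rFGF4-treated mouse 1 it was 0.41 with an unadjusted limma p of 0.0286, short of the fold change of the threshold, and without mouse 3 or 5 of that group or vehicle-treated mouse 2 it was 0.0798 to 0.0900. Per3 (chr4:151003652-151044665) held 3.37, 3.35, 4.0004 and 5.24 FPKM with rFGF4 and 4.45, 3.53, 4.49 and 4.35 FPKM with vehicle. The groups overlapped fully for Per3, with a log2 fold change of -0.07 (SE 0.15; exact permutation p = 0.686, limma p = 0.646). Per1 and Per2 did not move in parallel, since the ratio of Per1 to Per2 ranged from 0.448 in vehicle-treated mouse 4 to 2.54 in rFGF4-treated mouse 1.

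Neither Cryptochrome gene passed the test. Cry1 (chr10:85131700-85185064), the stronger repressor of BMAL1 and CLOCK in most tissues, had 2.29, 3.35, 1.96 and 3.36 FPKM with rFGF4 and 1.69, 3.85, 3.74 and 4.195 FPKM with vehicle. Mice 3, 4 and 5 of the vehicle group held more Cry1 than any rFGF4-treated mouse, and vehicle-treated mouse 2 held the least of all. Cry1 had a log2 fold change of -0.20 (SE 0.24; exact permutation p = 0.486, limma p = 0.435). It was -0.42 without vehicle-treated mouse 2 and -0.0948 without rFGF4-treated mouse 3. Cry2 (chr2:92403646-92434043) stood at 4.57, 4.83, 5.11 and 6.88 FPKM with rFGF4 and at 6.39, 4.21, 5.68 and 5.31 FPKM with vehicle. Its groups overlapped throughout, with a log2 fold change of -0.01 (SE 0.16; exact permutation p = 0.914, limma p = 0.931). The relative amount of the paralogs shifted between mice more than either group mean did. The log2 ratio of Cry1 to Cry2 was -0.998, -0.53, -1.38 and -1.04 with rFGF4 and -1.92, -0.13, -0.60 and -0.34 with vehicle. Mouse 2 of the vehicle group had the lowest ratio, and the other vehicle-treated mice overlapped the rFGF4 group only through vehicle-treated mouse 4 and rFGF4-treated mouse 2.

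The activators did not separate the groups. Arntl (chr7:113207465-113314126) held 1.48, 0.803, 0.285 and 0.335 FPKM with rFGF4 and 0.431, 0.712, 0.698 and 1.29 FPKM with vehicle. The 2 highest mice, rFGF4-treated mouse 1 and vehicle-treated mouse 5, came from different groups, and the lowest were rFGF4-treated mice 3 and 5 and vehicle-treated mouse 2. For Arntl the log2 fold change was -0.08 (SE 0.24; exact permutation p = 0.8, limma p = 0.749). Clock (chr5:76209868-76304792), which in most tissues cycles little, stood at 2.22, 1.41, 0.498 and 1.74 FPKM with rFGF4 and at 1.49, 0.538, 1.94 and 0.489 FPKM with vehicle. For Clock the log2 fold change was 0.23 (SE 0.31; exact permutation p = 0.543, limma p = 0.466), with both low and intermediate mice in each group. Of the paralogs of the activators, Npas2 was under the filter, and Arntl2 was at 1.32 ± 0.484 FPKM with rFGF4 and 0.907 ± 0.358 FPKM with vehicle (SD, n = 4 each), a log2 fold change of 0.28 that did not pass the test.

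**Figure D2:**
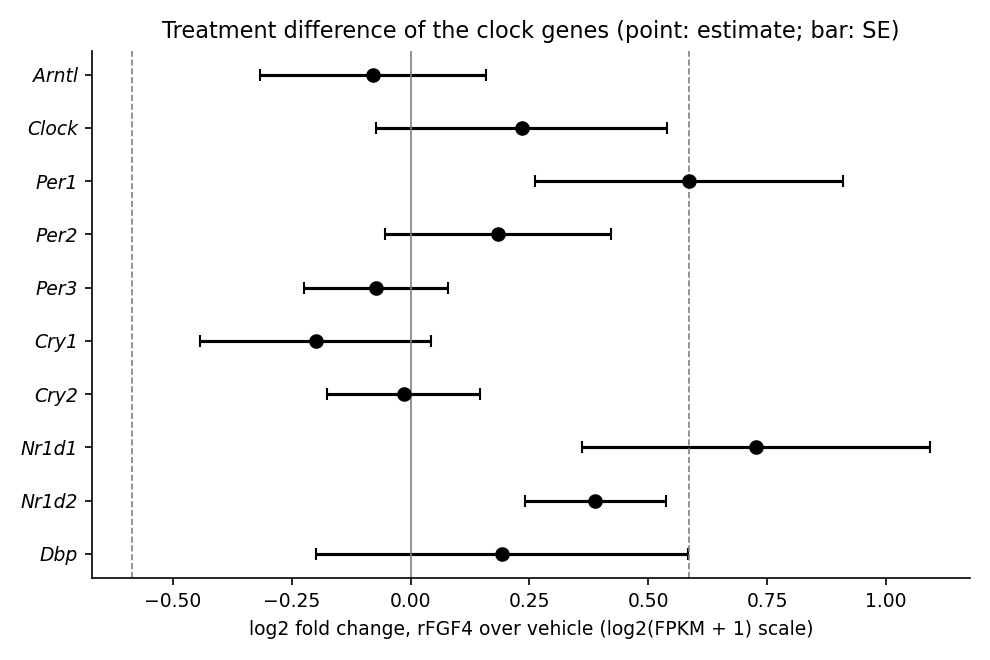
Difference between rFGF4 and vehicle for each of the 10 members (x axis, log2 fold change of FPKM + 1; points are limma estimates, bars are their SE, and dashed lines mark a fold change of 1.5 in either direction). Only Nr1d1 and Per1 reach the dashed line, at 0.73 and 0.59, and their bars span 0.37 and 0.32 to each side, whereas Nr1d2 at 0.39 has a bar of 0.15.

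The output gene Dbp (chr7:45705088-45710203) stood at 14.7, 10.8, 20.5 and 31.5 FPKM with rFGF4 and at 29.1, 9.21, 15.0 and 14.5 FPKM with vehicle. Each group held high and low mice, and the log2 fold change was 0.19 (SE 0.39; exact permutation p = 0.629, limma p = 0.637). Dbp shares exonic sequence with Sphk2 on the opposite strand, with the same limit on strand as for Nr1d1. Short exonic overlaps of this kind were also annotated for Arntl (with Gm45355) and Cry2 (with D930015M05Rik). The mice with the most Dbp, namely rFGF4-treated mice 5 and 3 and vehicle-treated mouse 2, were the 3 with the least Arntl. The log2 ratio of Arntl to Dbp, which does not depend on the scaling of a library, was -3.32, -3.75, -6.16 and -6.56 in rFGF4-treated mice 1, 2, 3 and 5 and -6.08, -3.69, -4.42 and -3.49 in vehicle-treated mice 2, 3, 4 and 5. The same 3 mice had the lowest ratio of Arntl to Nr1d1, which low Arntl alone lowers. That log2 ratio was -4.01, -4.33, -6.09 and -5.49 with rFGF4 and -5.65, -3.15, -3.25 and -3.40 with vehicle. The balance of activator and output transcripts thus varied within both groups, and rFGF4-treated mice 1 and 2 lay on the same side as vehicle-treated mice 3, 4 and 5.

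Over the 8 mice, Pearson's r of Arntl with Dbp on log2(FPKM + 1) was -0.58 (exact permutation p = 0.131) and Spearman's rho was -0.69 (exact permutation p = 0.0694). Among the 9 correlations of Arntl with another member, r ranged from -0.66 for Per2 to 0.34 for Cry1, and none passed Benjamini-Hochberg adjustment in exact permutation tests (smallest adjusted p = 0.459 for r and 0.308 for rho). For Arntl and Nr1d1, r was 0.0128 (exact permutation p = 0.977). With the group means subtracted, r for Arntl and Dbp was -0.58. Without rFGF4-treated mouse 1 and vehicle-treated mouse 5, the mice farthest from the median of Arntl, r was -0.84 for Dbp and -0.21 for Per2. With the libraries rescaled to share 1 median ratio, r was -0.74 for Dbp, -0.73 for Per2 and -0.82 for Nr1d2, with a smallest adjusted exact permutation p of 0.116 over the 9 pairs.

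**Figure D3:**
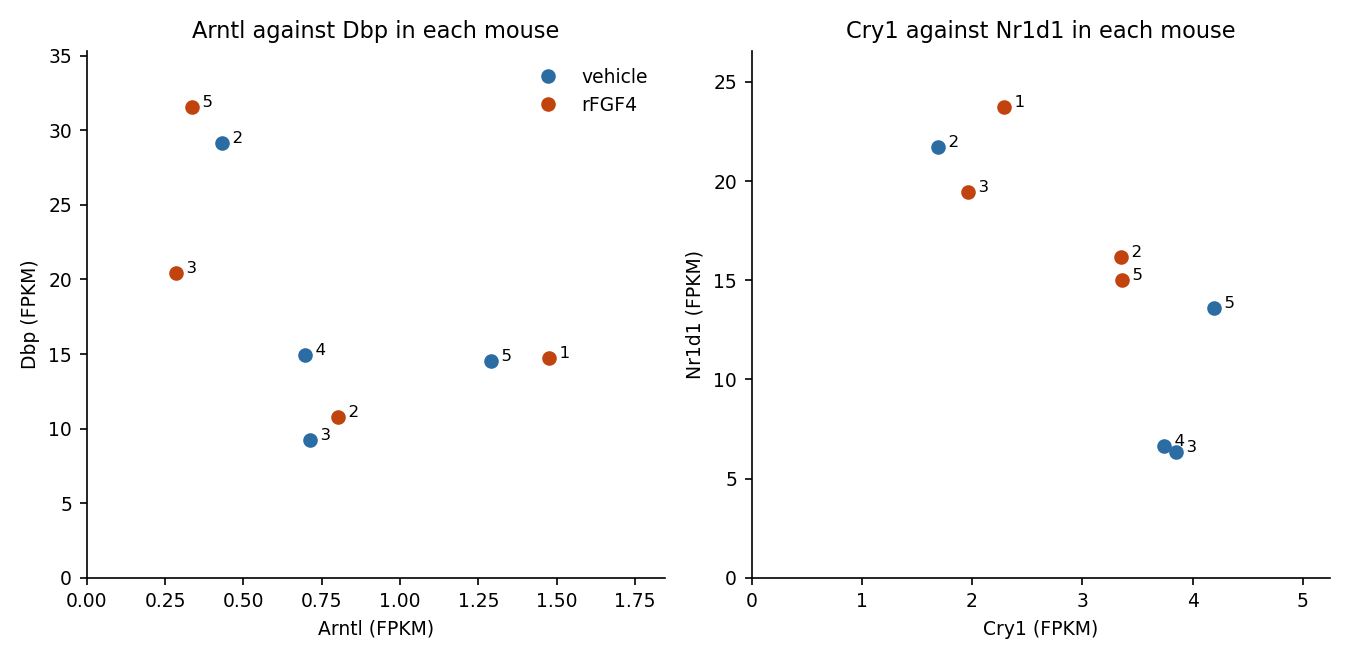
Levels of clock gene pairs in each mouse, in FPKM. Arntl (x axis) is set against Dbp (y axis) on the left and Cry1 (x axis) against Nr1d1 (y axis) on the right. The correlation of Cry1 with Nr1d1 was not computed. Points are single mice coloured by group and numbered as in the labels. On the left, rFGF4-treated mice 3 and 5 and vehicle-treated mouse 2 combine Arntl of 0.431 FPKM or less with Dbp of 20.5 FPKM or more, and on the right the mice with the least Cry1 (1.69 to 2.29 FPKM) have the most Nr1d1 (19.4 to 23.7 FPKM).

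Libraries differed in the levels of tissue and cell type markers. Markers of kidney were present in every library, with all 10 listed genes tested and a summed level of 2289 to 7513 FPKM with rFGF4 and 4393 to 9094 FPKM with vehicle. The summed level of 5 macrophage markers was 1017, 350.0, 92.5 and 67.7 FPKM in rFGF4-treated mice 1, 2, 3 and 5 and 35.7, 269, 45.9 and 1546 FPKM in vehicle-treated mice 2, 3, 4 and 5. The 2 mice with the most macrophage transcripts were the 2 with the most Arntl. Of these markers 5 of 5 were tested, and their median log2 fold change was 0.43. Lymphoid markers (4 of 6 tested) summed to 69.0 to 2648 FPKM with rFGF4 and to 23.5 to 22388 FPKM with vehicle, highest in vehicle-treated mouse 5. Igkc made up most of these sums, with 2640 FPKM in rFGF4-treated mouse 1 and 22334.5 FPKM in vehicle-treated mouse 5. Mitochondrially encoded genes took 19.0%, 24.7%, 29.8% and 36.0% of the summed FPKM with rFGF4 and 38.4%, 34.2%, 37.2% and 24.4% with vehicle, lowest in the same 2 mice. Red blood cell markers were lower with rFGF4 in 5 of 5 tested (median log2 fold change -1.97), where 67.1% of all genes were higher. Of these markers 0 passed the threshold of the study, beside 1.52% of all genes. Their sums were 120 to 2657 FPKM with rFGF4 and 1139 to 4325 FPKM with vehicle. Liver markers (4 of 5 tested) were higher with rFGF4 in 4 of 4, beside 67.1% of all genes. Apoa1 and Serpina1a passed the threshold of the study, beside 1.52% of all genes. The liver sums, mostly Serpina1a, were 268 to 524 FPKM with rFGF4 and 173 to 286 FPKM with vehicle. Alb had means of 9.66 FPKM with rFGF4 and 9.76 FPKM with vehicle. The 5 adipose markers, listed because the extraction protocol mentions adipose tissue, summed to at most 0.688 FPKM. In bulk kidney tissue, fewer cells of a type and less RNA per cell cannot be told apart, and the part of these differences in the levels of Arntl was not tested. The genes most like Arntl over the 8 libraries among 15150 genes were Pisd-ps1, Rpa3, Snord35b, Cnbp and Ppwd1 (Pearson's r of 0.97 to 0.99). Those most like Dbp were Ypel3, Zfp367, Fan1, Tmem161a and Pcmtd2 (r of 0.92 to 0.96). Both lists hold the highest of 15150 correlations over 8 libraries, which were not tested, and Snord35b fell to 0.0147 FPKM.

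Outside the 10 members, a list of 51 genes of the same loops, their modifying enzymes, partners and outputs was read from the same fit. The list was chosen with earlier results of these data known, so its shares beside those of all genes only describe it. Of the 48 tested, 39 (81.2%) were higher with rFGF4 and 9 were lower, where 67.1% of all genes were higher. Their median log2 fold change was 0.24, beside 0.09 for all genes. At an unadjusted p under 0.05, 9 were higher and 0 lower, beside 4.62% of all genes, and in 6 (12.5%) the groups did not overlap, beside 3.33% of all genes. Of the 48, 2 passed the threshold of the study, beside 1.52% of all genes, and 0 an adjusted p. The count of 9 became 2 with a replicate block, 5 with the libraries rescaled to share 1 median ratio, 5 without rFGF4-treated mouse 2 and 14 with array weights. The count of 2 became 1 without rFGF4-treated mouse 1 or 2 or with the block, 5 without rFGF4-treated mouse 5, 5 with array weights and 6 with mitochondrial genes left out.

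Bhlhe40, which encodes DEC1, a repressor that competes with BMAL1 and CLOCK at E-boxes, rose by the threshold of the study. It was at 51.2, 57.1, 43.1 and 31.2 FPKM with rFGF4 and at 25.8, 18.9, 27.2 and 25.7 FPKM with vehicle. Every rFGF4-treated mouse lay above every vehicle-treated mouse. The log2 fold change was 0.86 (SE 0.20), with a limma p of 0.00279, an adjusted p of 0.918 and an exact permutation p of 0.0286, the lowest possible with 4 against 4. Bhlhe40 stayed past the threshold of the study in all 16 other settings, with log2 fold changes of 0.73 to 1.02. The other E-box repressors were also higher with rFGF4 (4 of 4 in all, median 0.46, where 67.1% of all genes were higher), but none of them passed the threshold. Bhlhe41, encoding DEC2, was at 1.15 ± 0.968 and 0.718 ± 0.591 FPKM (log2 fold change 0.28). Cipc, a protein that binds CLOCK, was at 8.46 ± 1.15 FPKM with rFGF4 and 5.85 ± 2.06 FPKM with vehicle (SD, n = 4 each), a log2 fold change of 0.51 with an unadjusted limma p of 0.048 that did not reach the fold change of the threshold. Cipc passed the threshold without vehicle-treated mouse 3 (0.69), and its unadjusted p was over 0.05 without any other single mouse except rFGF4-treated mouse 1, with 0.33 without vehicle-treated mouse 4.

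Ciart, a BMAL1 and CLOCK target that acts back on them, was at 1.61, 2.97, 8.94 and 3.59 FPKM with rFGF4 and at 6.57, 1.83, 1.59 and 1.69 FPKM with vehicle. Vehicle-treated mouse 2 and rFGF4-treated mouse 3, both low in Arntl and Cry1, held the most Ciart, and the log2 fold change was 0.42 (SE 0.48). Nfil3 (E4BP4), the bZIP repressor that opposes DBP at D-boxes, was at 4.81, 5.79, 2.51 and 3.13 FPKM with rFGF4 and at 2.61, 9.27, 8.95 and 6.16 FPKM with vehicle. All rFGF4-treated mice lay below vehicle-treated mice 3, 4 and 5, and vehicle-treated mouse 2 lay among them. The log2 fold change of Nfil3 was -0.55 (exact permutation p = 0.229, limma p = 0.166), and without vehicle-treated mouse 2 it was -0.88 with an unadjusted p of 0.0124, past the threshold of the study. Rora, which encodes an activating receptor of the element that REV-ERB represses, had a log2 fold change of 0.17 that did not pass the test. The PAR bZIP factors related to Dbp also varied widely between mice. Tef ranged from 13.3 to 27.5 FPKM with rFGF4 and from 7.72 to 32.5 FPKM with vehicle, and Hlf from 4.92 to 26.1 and from 7.38 to 19.4 FPKM.

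Among the enzymes that modify PER and CRY, 8 of 9 tested kinases and phosphatases were higher with rFGF4 (median log2 fold change 0.29), and 2 of these had an unadjusted p under 0.05, where 67.1% of all genes were higher and 4.62% had such a p. These were Ppp1ca, a catalytic subunit of protein phosphatase 1, at 0.45, and Csnk1a1, a casein kinase 1 gene, at 0.36. Their unadjusted limma p of 0.0210 and 0.0459 became 0.0960 and 0.294 with a replicate block. Csnk1d, the kinase best known for setting the pace of PER, had a log2 fold change of 0.33 that did not pass the test. Of the ubiquitin ligases and deubiquitinases, 4 of 5 tested were higher (median 0.21) and 0 had an unadjusted p under 0.05 in limma. In this group Usp2, a deubiquitinase with a strong daily rhythm, was at 21.9 ± 8.36 FPKM with rFGF4 and 22.9 ± 4.90 FPKM with vehicle (SD, n = 4 each). Of 12 protein partners 10 were higher (median 0.22). Ddb1 and Cul4a, subunits of the CRL4 ubiquitin ligase, had log2 fold changes of 0.46 and 0.42, with unadjusted limma p of 0.0185 and 0.0176 (adjusted p = 0.918 for both), which were 0.0989 and 0.137 with a replicate block. For Ddb1, Cul4a and Ppp1ca every rFGF4-treated mouse exceeded every vehicle-treated mouse, where the groups did not overlap in 3.33% of all genes.

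The listed outputs had a median log2 fold change of 0.33, with 10 of 12 higher, beside 67.1% of all genes, and 2 lower. The outputs named below are all from those that were higher. Wee1, a cell cycle kinase gene with E-boxes, was at 8.64 ± 0.740 FPKM with rFGF4 and 5.86 ± 1.34 FPKM with vehicle (log2 fold change 0.51). Slc6a6, the taurine transporter gene, was at 69.6 ± 10.2 and 48.0 ± 6.80 FPKM (log2 fold change 0.53). In both the groups did not overlap, as in 3.33% of all genes, and neither reached the fold change of the threshold. Slc6a6 reached it without rFGF4-treated mouse 5 (0.61) or vehicle-treated mouse 2 (0.602), Wee1 without vehicle-treated mouse 4 (0.603), and both with mitochondrial genes left out (0.63 and 0.598). Pdk4, which encodes a kinase that holds back pyruvate oxidation, passed the threshold with 20.3, 30.8, 16.1 and 10.8 FPKM against 3.13, 15.7, 8.82 and 4.86 FPKM. Vehicle-treated mouse 3 lay within the rFGF4 range for Pdk4, whose log2 fold change was 1.28 (SE 0.46; exact permutation p = 0.0571, limma p = 0.0232, adjusted p = 0.918). Pdk4 was no longer past the threshold without rFGF4-treated mouse 1 (log2 fold change 1.23) or 2 (1.04), or without vehicle-treated mouse 2 (0.96) or 5 (1.13). Nor did it pass with a replicate block (1.33), or with rFGF4-treated mouse 1 and vehicle-treated mouse 5 both removed (1.08), an alternative added after seeing the data.

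**Figure D4:**
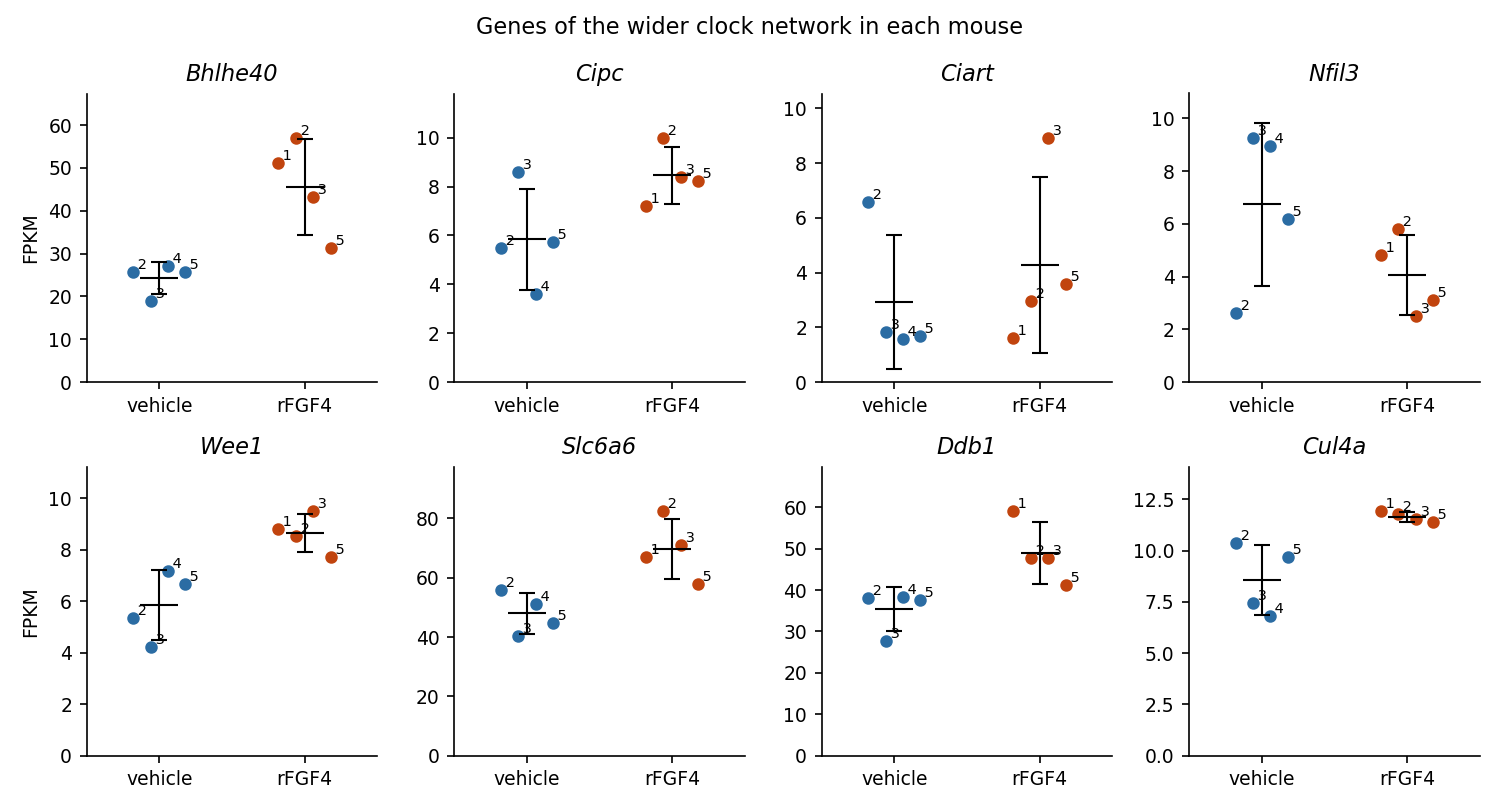
Expression of 8 further clock network genes in each mouse (y axis, FPKM, 1 panel per gene with its own scale starting at 0). Points are mice numbered as in the labels, and lines give the mean and SD of 4 mice per group. The groups are apart for Bhlhe40, Wee1, Slc6a6, Ddb1 and Cul4a, whereas vehicle-treated mouse 2 lies apart from the other vehicle-treated mice for Nfil3 and Ciart.

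Per1 is also induced by glucocorticoids and by cAMP signalling, and genes of these responses were read beside it. Of 10 glucocorticoid-induced genes, all tested, 8 were higher and 2 lower with rFGF4 (median 0.51), and 3 passed the threshold of the study, where 67.1% of all genes were higher and 1.52% passed it. These were Fkbp5, an inhibitor of the glucocorticoid receptor, at 0.995, Dusp1, a MAP kinase phosphatase gene, at 1.08, and Errfi1, an inhibitor of the EGF receptor, at 1.20. Fkbp5 stood at 22.8, 33.3, 47.7 and 18.8 FPKM with rFGF4 and at 13.2, 17.1, 13.1 and 12.7 FPKM with vehicle, so the groups were apart. In the rFGF4 group, mouse 5 held the least Per1, Fkbp5, Dusp1 and Errfi1, but also the least Bhlhe40 and Pdk4. For Klf9 and Klf15 of the glucocorticoid-induced list, mouse 1 of this group held the least. Dusp1 was at 13.3, 35.4, 37.2 and 11.6 FPKM with rFGF4 and at 9.99, 11.3, 7.54 and 9.83 FPKM with vehicle, with no overlap. Errfi1 was at 142, 271, 358 and 73.4 FPKM with rFGF4 and at 79.6, 109.8, 70.1 and 58.3 FPKM with vehicle, and its groups overlapped (exact permutation p = 0.0857). With libraries rescaled to 1 median ratio, Dusp1 (log2 fold change 0.96) and Errfi1 (1.07) no longer passed the threshold. Neither passed it without rFGF4-treated mouse 2 (0.85 and 0.998) or 3 (0.82 and 0.86) or without vehicle-treated mouse 4 (0.98 and 1.15), nor did Errfi1 without vehicle-treated mouse 2 (1.21) or 5 (1.06) or with rFGF4-treated mouse 1 and vehicle-treated mouse 5 both removed (1.17). Of the immediate genes of CREB and serum response, 9 of 9 tested were higher (median 0.84), and limma gave 0 of these an unadjusted p under 0.05.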

How the data were processed

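Poly(A) RNA of 8 kidneys was sequenced in paired ends. The submitters' processing notes name HISAT2 2.0, StringTie 1.3.0, Bowtie 0.12.2 and mm8, while 99.5% of the 55401 identifiers are in GENCODE M21 on GRCm38, from which gene positions came. The authors deposited FPKM per gene, with 0.0001 where no value stood above 0, and the results of their own edgeR comparison, which were not used. No counts were given, so the edgeR test of the study could not be run and the number of fragments behind a value is unknown. Depth relative to vehicle-treated mouse 2, inferred from steps of low values, was 0.904 to 1.12.

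Values were compared as log2(FPKM + 1) with limma 3.58.1 in R 4.3.3 (variance trend, Benjamini-Hochberg over 15150 genes with at least 0.5 FPKM in 4 libraries). Single members were compared by exact permutation, two-sided. The labels do not say that the libraries came from separate animals, and p-values then measure only the spread between libraries. Alternatives were a pseudocount of 0.1, no filter, scaling to a common median ratio, leaving out mitochondrial genes, a replicate block, array weights, no trend and each mouse left out. The script was tested on simulated data. All members were named, as were listed genes with an unadjusted p under 0.05 and up to 4 of the highest mean FPKM per list, and the 5 genes closest to Arntl and to Dbp. A result of the lists is not reported here. The members and lists were chosen with earlier results of these data known. Figures were drawn with matplotlib 3.10.9.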

Additional observations from a re-analysis of the deposited data

Results flagged for a closer look

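In groups of 4 mice, a mouse was singled out where its gap to the nearest other mouse took more of the range of the group on log2(FPKM + 1) than Dixon's 95% critical value. Of 64 groups examined 9 were singled out, where about 1 in 20, or 3 groups, would be by chance. Among the members, Per3 in vehicle-treated mouse 3 was low (3.53 FPKM, share of the range 0.863) and Cry1 in vehicle-treated mouse 2 was low (1.69 FPKM, 0.861). Vehicle-treated mouse 3 was also low for Bhlhe40 (share 0.851) and Ddb1 (0.931) and high for Fkbp5 (0.870). Ciart was high in vehicle-treated mouse 2 (0.915). Bhlhe41 was high in rFGF4-treated mouse 1 (0.892) and in vehicle-treated mouse 5 (0.851), and Csnk1a1 was high in vehicle-treated mouse 5 (0.841).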

How the results depend on the processing

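No member passed the threshold of the study in the comparison as reported, and the count of members past it was 0 to 1 when single mice were left out, 1 without rFGF4-treated mouse 5 (Per1) and 1 without vehicle-treated mouse 2 (Nr1d1). Per1, Per2, Nr1d1 and Nr1d2 were higher and Cry1 lower under all 16 alternatives, which include the removal of rFGF4-treated mouse 1 and vehicle-treated mouse 5 together, added after seeing the data. Of 159 member values under alternatives 139 kept direction and side of the threshold, 18 turned direction and 2 passed the threshold. Of 351 values of the 22 other network, output and glucocorticoid-induced genes followed in this way, 312 kept both, 13 turned, 17 lost the threshold and 9 passed it. Scaling to a common median ratio gave Hlf -0.014, and leaving out mitochondrial genes gave Per3 0.0064 and Cry2 0.0685. Array weights gave Clock -0.12, Dbp -0.0439 and Usp2 0.0231. With single mice left out, log2 fold changes that turned ranged from -0.12 to 0.0589 for Cry2, -0.27 to 0.0486 for Arntl, -0.0675 to 0.48 for Dbp, -0.23 to 0.50 for Hlf, -0.54 to 0.11 for Tef and -0.31 to 0.17 for Usp2. With both mice removed, Clock was -0.0601, Per3 0.000602, Cry2 0.0414, Tef 0.0896 and Usp2 0.0723, and Arntl fell under the filter. The correlation of Arntl turned to -0.0781 with Clock, -0.33 with Per1 and -0.36 with Nr1d1 after scaling, and to -0.21 with Per1 and -0.61 with Nr1d1 without the mice farthest from the median. The causes were not tested. Of all genes, 231 passed the threshold of the study, against 348 with a pseudocount of 0.1, 490 with array weights, 565 without rFGF4-treated mouse 5 and 419 without vehicle-treated mouse 5. An adjusted p under 0.05 was reached by 0 genes in limma, where 700 had an unadjusted p under 0.05, and by 1 gene without the filter and without vehicle-treated mouse 2, 4 or 5. With 1 sample per mouse and no counts, differences in members under 1 FPKM cannot be weighed against counting error.

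Deviations of same-numbered mice did not move together (correlations of -0.23, -0.16 and -0.39 for numbers 2, 3 and 5). For mice with different numbers the correlations were -0.56 to 0.57. Whether the numbers pair the mice cannot be decided from these values, since deviations from a group mean depend on one another. With a replicate block, 0 members passed the threshold, 262 genes in all passed it, and 2 network genes had an unadjusted p under 0.05 in place of 9. The block turned Per3 to 0.0132, Cry2 to 0.0684, Tef to 0.24, Bhlhe41 to -0.0622 and Usp2 to 0.13, and Pdk4 (1.33) no longer passed the threshold. It moved Per1 to 0.25, Nr1d1 to 0.40, Cry1 to -0.0901 and Per2 to 0.46, the last with an unadjusted limma p of 0.046. Cipc passed the threshold with array weights (0.71) and with mitochondrial genes left out (0.59).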
